A study of Homo sapiens with 18 samples.

Results

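The response of NCI-H295R cells to BGT226 alone was described across the transcriptome. NCI-H295R is a steroid-producing cell line from a human carcinoma of the adrenal cortex, and BGT226 is a dual inhibitor of the PI3K family of lipid kinases and of the kinase mTOR. The comparison rested on 6 of the 18 libraries of the series. The 3 BGT226 libraries came from cells exposed for 48 h at a stated 20 nM, and the 3 untreated libraries came from cells without an inhibitor, for which no vehicle is named. The other groups used here, of 3 libraries each at a stated 20 nM for 48 h, were STA9090 with BGT226, STA9090 alone (ganetespib, an inhibitor of the chaperone HSP90) and PIK75 (an inhibitor of the p110 alpha catalytic subunit of PI3K). The dose of each agent within the combination is not stated, and all groups are cultures of the same cell line. The study concerns inhibition of PI3K and of HSP90 in adrenocortical carcinoma, and BGT226 against untreated cells asks what the PI3K and mTOR inhibitor did by itself. The series' design text names 3 biological replicates per condition and no batch. The labels do not say whether the libraries of a group came from separate cultures, so the p-values measure the spread between these libraries. Their counts differed by more than sampling noise in every pair, with a chi-square per gene of 3.97 between BGT226 replicates 1 and 2, 16.5 and 16.6 in the other BGT226 pairs, and 14.7 to 49.5 in untreated pairs, the largest of which involve replicate 2.

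As background, PI3K makes a membrane lipid that recruits the kinase AKT, and AKT retains the FOXO transcription factors outside the nucleus and activates mTOR complex 1. mTOR complex 1 promotes protein synthesis through 4E-BP proteins and S6 kinases, with the strongest control over mRNAs that begin with a terminal oligopyrimidine (TOP) tract, and it promotes lipid, amino acid and nucleotide synthesis through the transcription factors SREBP and ATF4. Inhibitors of the pathway are known to relieve feedback on receptor tyrosine kinases.

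The table held estimated counts per gene from total RNA depleted of ribosomal RNA. Totals were 10237016, 12505718 and 21133760 counts in BGT226 libraries, and 13308128, 15507716 and 10460767 counts in untreated libraries. Short RNA polymerase III transcripts took 33.6 to 35.9% of counts in BGT226 libraries and 28.6 to 37.6% in untreated libraries, and mitochondrial mRNAs took 8.27 to 9.86% against 4.71 to 10.7%. Values below are CPM, the usual counts scaled to library size, here with TMM factors, and differences are log2 fold changes of BGT226 over untreated. Of 11 genes that mark steroid-producing adrenocortical cells, 10 had enough counts to be tested, CYP11B1 being the exception, and their summed level was 2088 to 2200 CPM in BGT226 libraries and 2179 to 2602 CPM in untreated libraries. Within that sum 5 of the 10 genes were lower and 3 higher, and 1 was higher without untreated replicate 1. Of 24 markers of fibroblasts, endothelium and leukocytes, 4 could be tested. Of these 0 passed and 0 had an unadjusted p under 0.05 by edgeR's quasi-likelihood test. The 7 endothelial markers all had too few counts to be tested, and their level was not summed. In these bulk samples, fewer cells of a kind and less RNA per cell cannot be told apart.

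Of 15787 genes tested, 2028 were higher with BGT226 (12.8%) and 2485 were lower (15.7%) at an adjusted p under 0.05. At least 2-fold changes were fewer, with 276 genes higher (1.75%) and 149 lower (0.944%). Small shifts made up most of the response: 4088 of the 4513 called genes (28.6% of those tested) changed by less than 2-fold, and the median size of a called change was 0.48 on the log2 scale. The median over all genes tested was 0.01, a value that TMM scaling centres near 0. In 44.9% of all genes tested the 3 BGT226 values did not overlap the 3 untreated values.

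**Figure D1:**
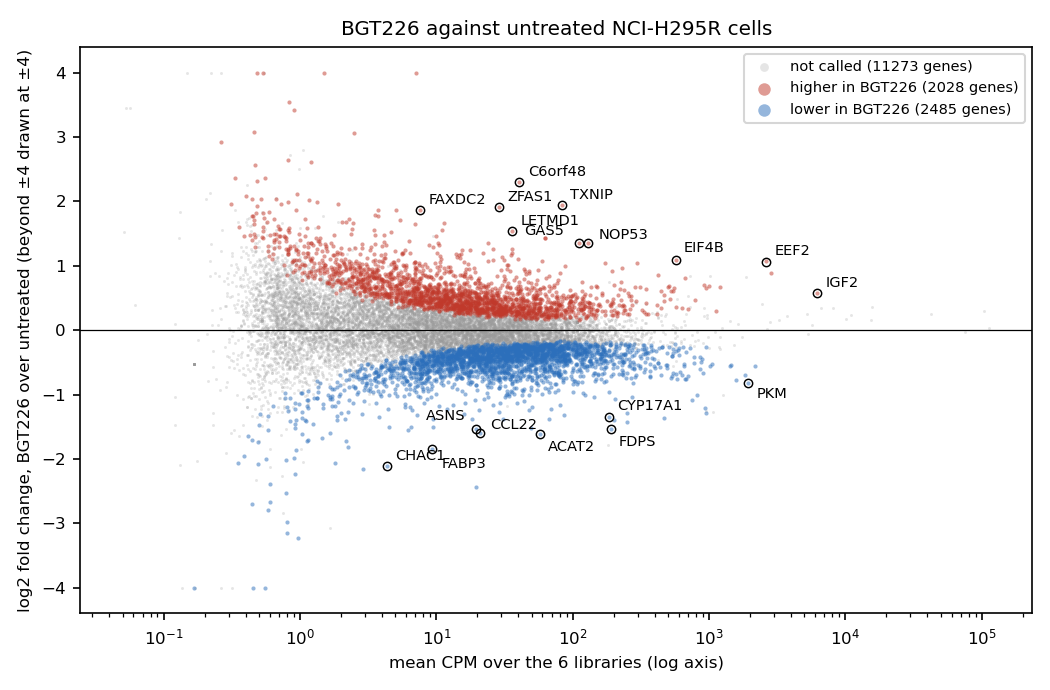
Log2 fold change of BGT226 over untreated (vertical axis) against the mean CPM of the 6 libraries (horizontal log axis), with a point for each gene tested, red for the 2028 called higher and blue for the 2485 called lower. Labelled genes are circled; most called changes lie within 1 log2 unit of 0, while C6orf48, TXNIP and ZFAS1 stand near 2 and FABP3 and CHAC1 near -2.

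The largest rises among annotated protein-coding genes with a mean of at least 5 CPM included a snoRNA host, C6orf48, and a FOXO-responsive inhibitor of glucose uptake, TXNIP. C6orf48 had 67.4, 66.9 and 68.5 CPM in BGT226 libraries, against 13.0, 14.9 and 13.0 CPM in untreated libraries (2.31, SE 0.092, adjusted p = 1.61e-12). TXNIP had 136, 126 and 135 CPM in BGT226 libraries, against 33.8, 38.7 and 30.5 CPM in untreated libraries (1.94, SE 0.085, adjusted p = 4.66e-12). Both separated the groups by more than 3-fold between the nearest libraries. FAXDC2, which encodes a fatty acid hydroxylase domain protein, had 10.6, 13.3 and 11.7 CPM in BGT226 libraries, against 3.94, 2.98 and 2.88 CPM in untreated libraries, a log2 fold change of 1.86 (SE 0.16, adjusted p = 8.28e-08). LETMD1, a mitochondrial membrane protein gene, had 55.0, 50.7 and 55.0 CPM in BGT226 libraries, against 15.97, 20.35 and 18.86 CPM in untreated libraries (1.54, SE 0.084, adjusted p = 1.12e-10). For both genes the nearest libraries of the groups lay more than 2-fold apart. Non-overlap itself was a condition for naming the largest rises. RBM43, encoding an RNA-binding protein, changed by 1.87, the homeobox gene CUX2 by 1.72, and SLC25A6, a carrier of ADP and ATP across the inner mitochondrial membrane, by 1.43. CREBRF, encoding a regulator of CREB3 proteins, had 15.7, 16.7 and 16.9 CPM in BGT226 libraries and 4.62, 6.09 and 6.17 CPM in untreated libraries, a change of 1.55 (SE 0.12, adjusted p = 1.37e-08).

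Genes of lipid metabolism were among the largest falls. FABP3, a fatty acid binding protein, had 3.84, 4.23 and 3.94 CPM in BGT226 libraries, against 14.83, 16.02 and 12.43 CPM in untreated libraries (-1.85, SE 0.15, adjusted p = 2.05e-08). The chemokine gene CCL22 had 11.0, 11.1 and 9.18 CPM in BGT226 libraries, against 28.9, 33.1 and 31.2 CPM in untreated libraries (-1.59, SE 0.12, adjusted p = 9.62e-09). Groups that do not overlap were a condition for naming these largest falls. The muscle filament gene MYOT changed by -1.54. The Golgi mannosidase gene MAN1C1 changed by -1.51, the dystrobrevin gene DTNA by -1.50 and the calcium-binding protein gene S100A6 by -1.38. CU639417.1 and H2BFS had the largest fitted changes in each direction, but reads of both can be shared with near-identical copies, and their values are uncertain. CU639417.1 was listed at 19.2, 19.6 and 3.57 CPM in BGT226 libraries and at 0 in all untreated libraries, and the histone gene H2BFS had 1.28, 0.399 and 13.7 CPM in BGT226 libraries and 24.4, 48.0 and 29.3 CPM in untreated libraries. The H2BFS call ended without untreated replicate 2, BGT226 replicate 1 or BGT226 replicate 2, and with DESeq2.

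Genes of the translation machinery changed in different directions between lists. The letters at the start of the RNA are shown because mRNAs of ribosomal proteins and elongation factors are known for a C followed by a run of pyrimidines there. The lines below give 10 bases before and 20 bases from the RefSeq start on GRCh38.p14, with the pyrimidine run in capitals where it is a C and at least 4 further pyrimidines.
EEF2, chr19:3985444-3985473, minus strand: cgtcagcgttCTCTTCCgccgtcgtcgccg
EEF1A1, chr6:73521013-73521042, minus strand: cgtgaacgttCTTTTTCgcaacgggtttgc
EIF4B, chr12:53006446-53006475, plus strand: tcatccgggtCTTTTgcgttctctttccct
RPL12, chr9:127451387-127451416, minus strand: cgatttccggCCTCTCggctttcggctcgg
RPL13A, chr19:49487598-49487627, plus strand: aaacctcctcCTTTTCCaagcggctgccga
NOP53, chr19:47745536-47745565, plus strand: tggctgagttCTTCCTTTgacaagatggcg
ZFAS1, chr20:49278632-49278661, plus strand: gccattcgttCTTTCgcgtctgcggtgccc
SNHG5, chr6:85678714-85678743, minus strand: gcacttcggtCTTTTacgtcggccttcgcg

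Genes with such starts among the elongation and TOP mRNA factors and the snoRNA hosts were among the clearest rises. EEF2, which moves the ribosome along the mRNA, had 3486, 3566 and 3618 CPM in BGT226 libraries, against 1626, 1919 and 1547 CPM in untreated libraries (1.07, SE 0.11, adjusted p = 5.24e-07). EIF4B, a cofactor of the helicase that opens mRNA for scanning and a target of S6 kinase, had 764, 762 and 792 CPM in BGT226 libraries, against 377, 384 and 329 CPM in untreated libraries (1.09, SE 0.085, adjusted p = 1.56e-08). EEF1A1, which delivers aminoacyl-tRNA, had 3598, 3832 and 3607 CPM in BGT226 libraries and 1860, 2412 and 1707 CPM in untreated libraries (0.88, SE 0.12, adjusted p = 2.22e-05). In each of these genes the lowest BGT226 library exceeded the highest untreated library. Among 20 factors of elongation and other TOP mRNAs, 13 were higher and 0 lower, with a median of 0.57. EIF3L, a subunit of the scaffold eIF3, rose by 0.93 and the poly(A)-binding protein gene PABPC1 by 0.66. The 29 initiation factors had a median of -0.22, with 5 higher and 10 lower. Membership was set by list, with EIF4B, which acts in scanning, counted among the 20 and EIF5A among the 29. These medians thus do not divide the genes strictly by role. EIF5, a GTPase-activating factor of start codon selection, had 119, 114 and 118 CPM in BGT226 libraries and 58.0, 56.2 and 61.6 CPM in untreated libraries, which did not overlap, and it had no TOP-like RefSeq start. EIF5A fell by 0.61, with 270, 278 and 264 CPM in BGT226 libraries and 364, 478 and 393 CPM in untreated libraries, and EIF2S1, a subunit of the factor that carries the initiator tRNA, fell by 0.48.

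Of 78 cytosolic ribosomal protein genes, 41 were higher and 2 lower, with a median of 0.30. The count of higher genes was 26 without BGT226 replicate 2 and 22 without untreated replicate 3, and the count of lower genes ran from 0 to 2 over the left-out libraries. RPL12 had 297, 302 and 314 CPM in BGT226 libraries and 163, 167 and 138 CPM in untreated libraries (0.97, SE 0.097, adjusted p = 4.43e-07). RPL13A, a host of snoRNAs, had 822, 914 and 824 CPM in BGT226 libraries and 416, 603 and 439 CPM in untreated libraries (0.81, SE 0.12, adjusted p = 3.32e-05). The whole family summed to 23960, 25200 and 24450 CPM in BGT226 libraries, against 18610, 21820 and 17270 CPM in untreated libraries, so the groups did not overlap. Ribosomal protein genes have many pseudogenes, and reads shared with them make single members uncertain. The listed genes of ribosome assembly did not follow: of 43 processing factors 1 was higher and 14 lower, with a median of -0.22. For the whole biogenesis list the count of lower genes was 9 without untreated replicate 1. NOP2, an rRNA methyltransferase, fell by 0.60 and NOB1, the nuclease of the final small-subunit cut, rose by 0.61. NOP53, which acts in large-subunit assembly and has the run of 8 pyrimidines shown above, had 187, 182 and 190 CPM in BGT226 libraries and 70.9, 78.8 and 68.3 CPM in untreated libraries (1.36, SE 0.12, adjusted p = 5.39e-08). NOP53 is not among the 43 processing factors counted above.

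The RNAs that host small nucleolar RNAs were higher or did not pass. Of 23 tested, 12 were higher and 0 lower, with a median of 0.50. ZFAS1 had 45.6, 45.5 and 45.5 CPM in BGT226 libraries, against 9.76, 14.3 and 12.1 CPM in untreated libraries (1.91, SE 0.10, adjusted p = 8.57e-11). GAS5 had 160, 161 and 156 CPM in BGT226 libraries, against 59.9, 65.3 and 61.1 CPM in untreated libraries (1.36, SE 0.090, adjusted p = 2.61e-09). The 3 BGT226 values of ZFAS1 lay within 0.2 CPM of each other. SNHG5 rose by 1.17, SNHG29 by 1.04 and EPB41L4A-AS1 by 1.46, while SNHG3, with a value of -0.11, did not pass. Many of these RNAs are known substrates of nonsense-mediated decay, which depends on translation. Of 14 genes of that decay pathway, 3 were higher (21.4%, against 12.8% of all genes), 0 lower and 11 did not pass, with a median of 0.04. The higher ones include SMG1, the kinase of the pathway, at 0.63 and UPF1, its helicase, at 0.38.

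TOP-like starts were counted over all genes with a RefSeq window, 10655 of those tested. They were present in 7.24% of these genes, 74.2% of 62 ribosomal protein genes, 75.0% of 12 elongation and TOP factors, 31.6% of 19 snoRNA hosts, 15.4% of 26 initiation factors and 2.08% of 48 proteasome genes. Within the translation factors, of 13 genes with a TOP-like start 10 were higher and 0 lower, and of 25 with another start 3 were higher and 10 lower. The elongation and TOP factors supplied 9 of these 13, and initiation factors supplied 22 of the 25. The former were listed in part as TOP mRNAs. Their share of TOP-like starts and this contrast were thus partly set by the choice of members. Within the ribosomal protein genes, 23 of 46 with a TOP-like start and 7 of 16 with another start were higher, with medians of 0.31 and 0.25. Within the snoRNA hosts 3 of 6 with a TOP-like start and 6 of 13 with another start were higher, and GAS5 is among those with no such run at its RefSeq start. Outside these 3 lists 39 of 256 genes with a run of 8 or more were higher, 80 of 450 with a run of 5 to 7 and 1178 of 9830 with another start. Their medians were 0.02, 0.01 and -0.03, which differ by less than 0.1. A gene with several RefSeq starts was counted by its longest run, as with LETMD1, whose starts have runs of 0 and 12. RefSeq gives a fixed base as each start, and the start used in these cells was not measured.

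**Figure D2:**
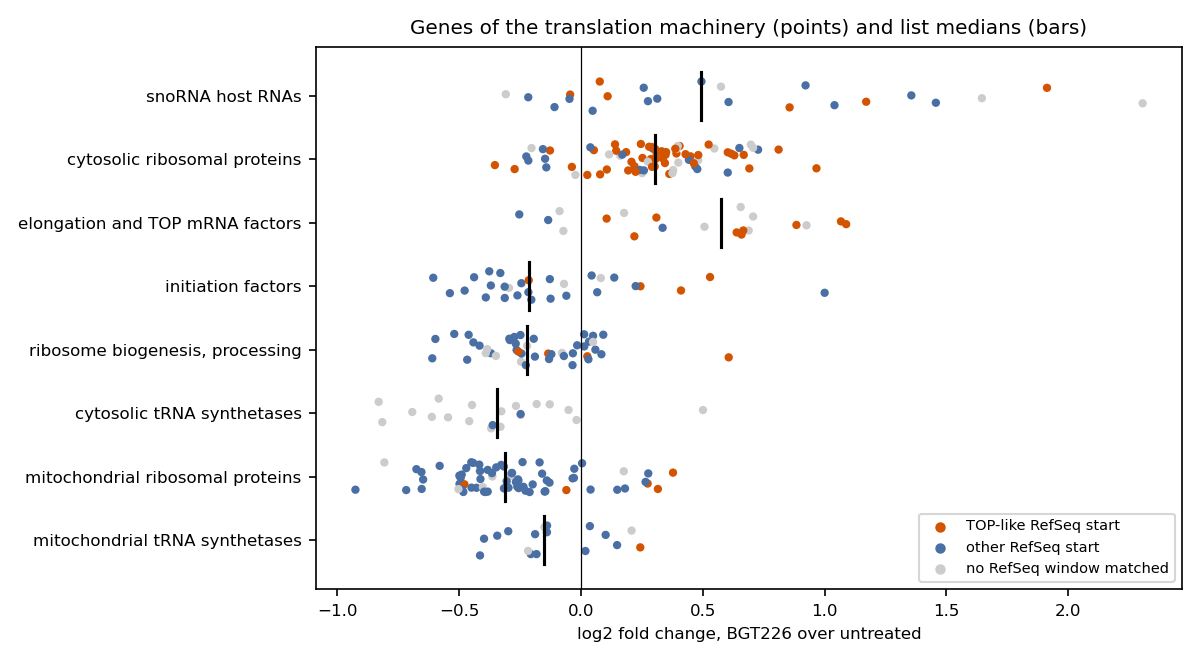
Log2 fold change of BGT226 over untreated (horizontal axis) for the genes of 8 lists of the translation machinery, with a point for each gene and a bar at each list's median. Orange points have a TOP-like RefSeq start. Most lie right of 0 among snoRNA hosts, ribosomal proteins, and elongation and TOP mRNA factors. Initiation factors, processing factors, tRNA synthetases and mitochondrial ribosomal proteins lie mostly left of 0.

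The cytosolic enzymes that charge tRNA and the carriers that supply amino acids moved the other way. Of 20 cytosolic tRNA synthetases 14 were lower and 1 higher, with 9 lower without untreated replicate 2, and of 17 mitochondrial ones 3 were lower (17.6%, near the 15.7% of all genes) and 1 higher. MARS had 76.0, 76.8 and 78.4 CPM in BGT226 libraries and 127, 156 and 128 CPM in untreated libraries (-0.83, SE 0.087, adjusted p = 7.86e-07). GARS fell by 0.82. Of 22 amino acid transporters 11 were lower. SLC7A5, the leucine carrier, had 12.2, 15.4 and 15.8 CPM in BGT226 libraries, against 31.0, 31.6 and 29.2 CPM in untreated libraries (-1.06, SE 0.11, adjusted p = 1.08e-06). SLC1A3, a glutamate carrier, fell by 1.23 and the taurine carrier SLC6A6 by 1.01. The glutamine carrier SLC38A2, at 0.21, was called higher, and that call ended when any of the 6 libraries was left out.

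Many targets of ATF4 were lower, while the mRNA of ATF4 itself was higher. ATF4 had 108, 117 and 113 CPM in BGT226 libraries, against 77.7, 82.5 and 79.3 CPM in untreated libraries (0.49, SE 0.063, adjusted p = 8.81e-06). PPP1R15A, the phosphatase subunit that restores initiation, rose by 0.69, and DDIT3 by 0.45, a call lost when leaving out untreated replicate 1 or BGT226 replicate 3. Of the 34 members of the ATF4 program that could be tested, 19 were lower and 3 higher. The serine and folate arm had 6 of 10 lower, with a median of -0.93 and 0 higher. PSAT1, an enzyme of serine synthesis, had 32.5, 26.9 and 25.9 CPM in BGT226 libraries and 61.5, 71.7 and 66.4 CPM in untreated libraries (-1.24, SE 0.093, adjusted p = 1.14e-08). PHGDH, the entry enzyme of that pathway, fell by 1.03, PSPH, its final enzyme, by 0.99, and MTHFD2, which carries folate units in mitochondria, by 0.97. ASNS, which makes asparagine, had 9.26, 10.5 and 10.2 CPM in BGT226 libraries and 26.4, 34.2 and 26.2 CPM in untreated libraries (-1.53, SE 0.14, adjusted p = 1.02e-07). The groups did not overlap in ATF4, PSAT1 or ASNS. SESN2 fell by 0.64 and TRIB3 by 0.75, both being known as inhibitors of growth signalling that ATF4 induces.

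The element TTGCATCA, bound by ATF4 with a C/EBP partner, was searched on both strands in the 250 bases before the RefSeq starts. It was present in 4 of 15 lower ATF4 program genes with a window (26.7%) and in 0.582% of all 10655 genes with a window. Program genes that were not lower were not counted separately, so the share cannot be tied to the fall. The sites are shown with 16 bases on each side and the element in capitals, on GRCh38.p14.
CHAC1, chr15:40953246-40953285, plus strand: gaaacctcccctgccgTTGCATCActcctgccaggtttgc
CEBPG, chr19:33374055-33374094, plus strand: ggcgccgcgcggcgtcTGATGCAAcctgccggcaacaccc
MTHFD1L, chr6:150866341-150866380, plus strand: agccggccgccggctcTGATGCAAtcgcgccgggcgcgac
GOT1, chr10:99430799-99430838, minus strand: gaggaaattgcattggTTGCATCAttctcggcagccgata

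These 4 genes changed by different amounts. CHAC1, which degrades glutathione, had 1.48, 1.52 and 1.81 CPM in BGT226 libraries and 6.66, 8.32 and 6.26 CPM in untreated libraries (-2.11, SE 0.18, adjusted p = 6.46e-08). MTHFD1L, a mitochondrial folate enzyme, changed by -0.89, GOT1, which makes aspartate, by -0.54 and CEBPG, a partner of ATF4, by -0.41. The CEBPG call ended without untreated replicate 1 or BGT226 replicate 3. Binding was not measured.

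Cholesterol synthesis was lower along nearly its whole length, with 18 of 22 enzymes lower, 0 higher and a median of -0.95. FDPS, which makes farnesyl diphosphate, had 97.87, 99.99 and 93.86 CPM in BGT226 libraries, against 283, 293 and 270 CPM in untreated libraries (-1.54, SE 0.082, adjusted p = 8.57e-11). MVD, of the mevalonate arm, fell by 1.52, LSS, which closes the sterol rings, by 1.40 and EBP, a sterol isomerase, by 1.32. SQLE changed by -0.31, a call lost when leaving out untreated replicate 1 or BGT226 replicate 1. GGPS1 (0.34), TM7SF2 (0.36), PMVK (-0.18) and SC5D (-0.25) did not pass. The supply of acetyl units was lower too, with ACLY at -1.43 and ACSS2 at -1.23, as were the fatty acid enzymes SCD, at -1.28, and FASN, at -1.20. SCD had 561, 548 and 561 CPM in BGT226 libraries and 1358, 1354 and 1345 CPM in untreated libraries. SREBF1, the factor of fatty acid genes, fell by 0.70, while SREBF2, the factor of cholesterol genes, did not pass at -0.12. The efflux pump ABCA1 rose by 1.11, with 14.6, 14.5 and 14.9 CPM in BGT226 libraries and 7.72, 6.22 and 6.51 CPM in untreated libraries. The promoter letters CCAAT, the binding sequence of NF-Y, which acts with SREBP, occurred on either strand before the start of 12 of 13 lower cholesterol genes with a window (92.3%) and of 42.0% of all genes with a window. CCAAT was also common in other lists, with 79.3% of lower mitosis genes, 64.3% of higher FOXO genes, 63.0% of lower replication genes and 46.7% of lower NRF2 targets. The share was below 42.0% in higher lysosome and autophagy genes (37.5% of 8) and lower cytosolic tRNA synthetases (0 of 2). The SREBP-type element TCACNCCAC was in 0 of the 13 lower cholesterol genes with a window and in 1.15% of all genes with a window.

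In the adrenal pathway that uses this cholesterol, genes of early and androgenic steps were lower and others were higher. CYP17A1, which makes cortisol and androgen precursors, had 102, 106 and 104 CPM in BGT226 libraries, against 266, 282 and 241 CPM in untreated libraries (-1.34, SE 0.082, adjusted p = 7.01e-10). STAR, which brings cholesterol into mitochondria, had 213, 222 and 211 CPM in BGT226 libraries and 348, 387 and 335 CPM in untreated libraries (-0.73, SE 0.078, adjusted p = 1.02e-06). CYP21A2, which acts toward cortisol and aldosterone, had 903, 947 and 890 CPM in BGT226 libraries and 608, 760 and 602 CPM in untreated libraries (0.48, SE 0.12, adjusted p = 0.00481), and its reads can be shared with its pseudogene. The groups did not overlap in these 3 genes. CYP11A1, the side-chain cleavage enzyme, fell by 0.49, SULT2A1 and PAPSS2, which make sulfated androgens, by 0.61 and 0.87, and AKR1C3, with near-identical relatives, by 0.82. HSD3B2 changed by 0.34, a call lost when leaving out untreated replicate 1 or untreated replicate 3. Of 17 enzymes and carriers 9 were lower and 2 higher. Scavenger receptor SCARB1, which takes up lipoprotein cholesterol, fell by 0.54, lysosomal lipase LIPA by 0.65 and hormone-sensitive lipase LIPE by 0.82. The transcription factor NR5A1, which sets the steroidogenic program, did not pass at -0.13, with 531, 556 and 524 CPM in BGT226 libraries and 529, 659 and 571 CPM in untreated libraries, which overlapped. GATA6, another adrenal factor, rose by 0.52. Over 11 such factors 2 were higher and 1 lower, with a median of -0.08. AGTR1, the angiotensin II receptor, rose by 0.35. Over 17 genes of receptors and cAMP signalling 2 were higher and 2 lower (11.8% each), with a median of -0.09. Of 14 ion channels and pumps that set the voltage and calcium entry of aldosterone-making cells, 4 were higher and 4 lower (28.6% each), with a median of 0.04. KCNJ5 rose by 0.39, CACNA1C by 0.65 and CACNA1H by 0.73, while CACNA1G fell by 0.54.

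**Figure D3:**
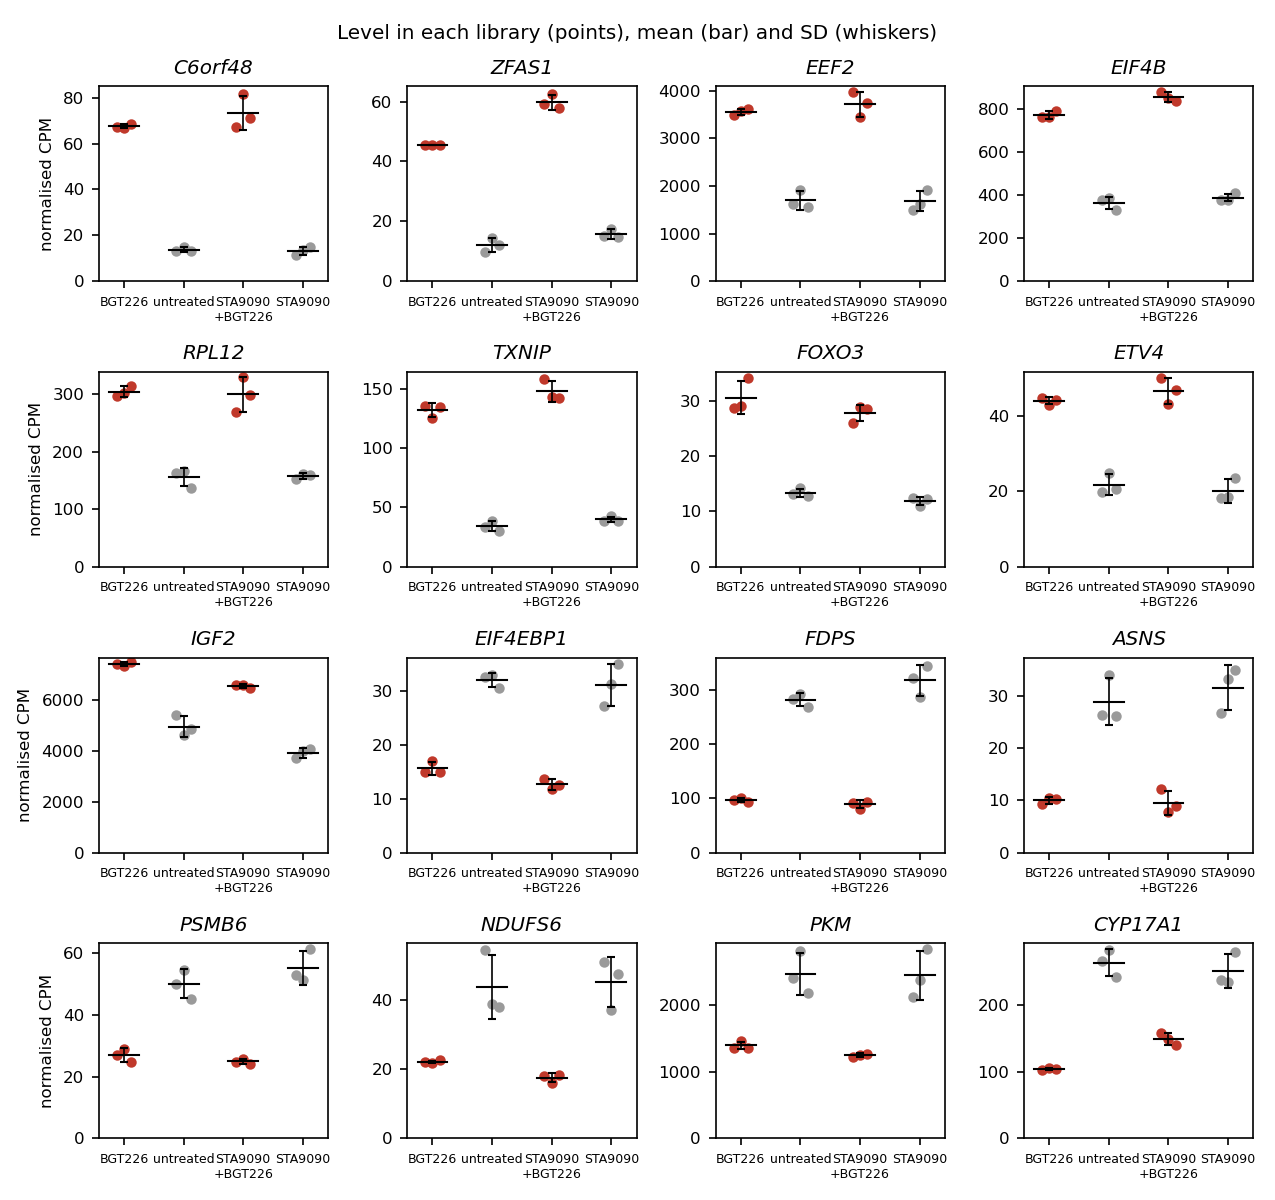
Normalised CPM of 16 genes in each library, with 3 points, mean and SD for each group, BGT226 left of untreated and STA9090+BGT226 left of STA9090. In all 16 genes the 3 BGT226 points are separate from the 3 untreated points, as in CYP17A1, where they lie at 102 to 106 against 241 to 282 CPM.

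The degradation and energy machinery was lower in small, even steps. All 14 genes of the proteasome's 20S core and all 18 of its 19S cap were lower, and of 55 proteasome genes 43 were lower and 0 higher, with a median of -0.55. PSMB6, a catalytic subunit, had 27.10, 29.02 and 24.58 CPM in BGT226 libraries and 50.1, 54.6 and 45.3 CPM in untreated libraries (-0.90, SE 0.11, adjusted p = 3.40e-06). PSMD11, of the cap, fell by 0.95 and POMP, the assembly factor, by 0.89. Of 77 nuclear genes of the respiratory chain, 52 were lower and 0 higher, with a median of -0.46. The shares were alike along the chain, with 26 of 38 in complex I, 16 of 24 in complexes II to IV with cytochrome c, and 10 of 15 in ATP synthase. NDUFS6, of complex I, had 22.0, 21.7 and 22.4 CPM in BGT226 libraries and 54.33, 38.61 and 37.97 CPM in untreated libraries (-0.98, SE 0.13, adjusted p = 1.36e-05). UQCRQ, of complex III, fell by 0.80, COX5A, of complex IV, by 0.68, and ATP5MF, of ATP synthase, by 0.78.

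Of the 13 mRNAs made from mitochondrial DNA 0 were higher and 0 lower by edgeR's quasi-likelihood test, 0 passed with DESeq2 and 1 had an unadjusted p under 0.05, with a median of 0.16. MT-CO1 had 16810, 17540 and 18710 CPM in BGT226 libraries and 16870, 11240 and 13040 CPM in untreated libraries, which overlapped. The mitochondrial share of counts varied widely among untreated libraries, and 6 of the 13 were higher without untreated replicate 1, the library with the largest share. Of 72 mitochondrial ribosomal protein genes, 41 were lower and 4 higher, and 25 were lower without BGT226 replicate 1, BGT226 replicate 3 or untreated replicate 2. The higher ones numbered 1 to 7 over the left-out libraries, 1 without untreated replicate 1 and 7 without untreated replicate 2. Of 23 genes listed for the TCA cycle and related enzymes 16 were lower and 0 higher. SUCLG1, of the cycle, fell by 0.61, and IDH1, which makes NADPH in the cytosol outside the cycle, by 0.96. Of 30 genes of glycolysis and the pentose phosphate pathway 21 were lower and 0 higher, with a median of -0.41. PKM, the final enzyme of glycolysis, had 1358, 1458 and 1360 CPM in BGT226 libraries and 2396, 2804 and 2176 CPM in untreated libraries (-0.82, SE 0.11, adjusted p = 1.51e-05). TPI1 fell by 0.77, ALDOA by 0.76, LDHA by 0.69 and GAPDH by 0.55. HIF1A, the hypoxia factor that drives many glycolytic genes, did not pass at -0.02.

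Genes of redox defence were lower, as was the iron uptake gene TFRC. Of 24 NRF2 targets 19 were lower and 0 higher, with a median of -0.64, among them NQO1, a quinone reductase, at -0.98, TXN, thioredoxin, at -0.94 and SLC7A11, the cystine carrier, at -1.06. TFRC, the transferrin receptor, had 262, 252 and 264 CPM in BGT226 libraries, against 665, 659 and 687 CPM in untreated libraries (-1.37, SE 0.091, adjusted p = 2.61e-09). The storage gene FTH1 fell as well, by 0.52, with 340, 332 and 364 CPM in BGT226 libraries and 513, 496 and 471 CPM in untreated libraries. Of 14 genes of iron handling 4 were lower, 0 higher and 10 did not pass, with a median of -0.08.

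Genes of cell division were lower with uneven depth. Of 44 genes of DNA replication 29 were lower and of 47 of mitosis 34 were lower, with 0 higher in either list. PCNA, the sliding clamp, had 48.8, 41.7 and 45.2 CPM in BGT226 libraries and 72.0, 71.7 and 64.5 CPM in untreated libraries (-0.62, SE 0.077, adjusted p = 6.53e-06). CDC20, the activator of anaphase, had 53.0, 55.3 and 52.4 CPM in BGT226 libraries and 85.9, 106 and 94.1 CPM in untreated libraries (-0.83, SE 0.087, adjusted p = 6.83e-07). The proliferation marker MKI67, at -0.16, and TOP2A, at -0.13, did not pass. Of 21 G1 cyclins, their kinases and inhibitors 11 were lower and 4 higher. CCND3, a D-type cyclin, fell by 0.93 and CCND2 by 0.44, while CCND1, named after its values were seen, rose by 2.09 at a low level, with 0.296, 0.957 and 0.696 CPM in BGT226 libraries and 0.0757, 0.203 and 0.169 CPM in untreated libraries. Of 53 clustered histone genes 38 were lower, with a median of -0.59, and 20 were lower without untreated replicate 2. They summed to 15100, 15940 and 14810 CPM in BGT226 libraries and 21450, 27830 and 18270 CPM in untreated libraries, and reads shared among these near-identical genes make the single members uncertain. Of 15 tubulin genes, which also resemble each other, 10 were lower and 0 higher. TUBA1A had 147, 154 and 136 CPM in BGT226 libraries and 329, 420 and 318 CPM in untreated libraries (-1.29, SE 0.11, adjusted p = 6.46e-08).

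The promoters of these division genes are known for a cell cycle element, TTTGAA, that recruits repressors outside mitosis, and for E2F sites such as TTTCCCGC. Searched on both strands before the start, the first was in 14 of 29 lower mitosis genes with a window (48.3%) against 11.8% of all genes with a window. The E2F letters were in 6 of 27 lower replication genes (22.2%) against 2.89% of all. Members of these lists that did not pass were not counted separately, so the shares cannot be tied to the fall. The examples carry 16 bases on each side of the element, in capitals, on GRCh38.p14.
CDC20, chr1:43358900-43358937, plus strand: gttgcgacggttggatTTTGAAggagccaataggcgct
PLK1, chr16:23678844-23678881, plus strand: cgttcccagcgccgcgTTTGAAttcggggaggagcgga
CDCA8, chr1:37692477-37692514, plus strand: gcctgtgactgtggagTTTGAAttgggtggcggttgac
PCNA, chr20:5126658-5126697, minus strand: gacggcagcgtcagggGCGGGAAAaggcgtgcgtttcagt
MCM7, chr7:100101561-100101600, minus strand: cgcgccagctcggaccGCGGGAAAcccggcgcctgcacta

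PLK1, a mitotic kinase, changed by -0.53, CDCA8, a subunit of the chromosomal passenger complex, by -0.64 and MCM7, of the replicative helicase, by -0.38. Nucleotide synthesis, which feeds replication, had 15 of 28 genes lower and 1 higher. RRM2, a subunit of ribonucleotide reductase, changed by -0.62, CTPS1, which makes CTP, by -0.65 and IMPDH2, of guanine nucleotide synthesis, by 0.35.

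**Figure D4:**
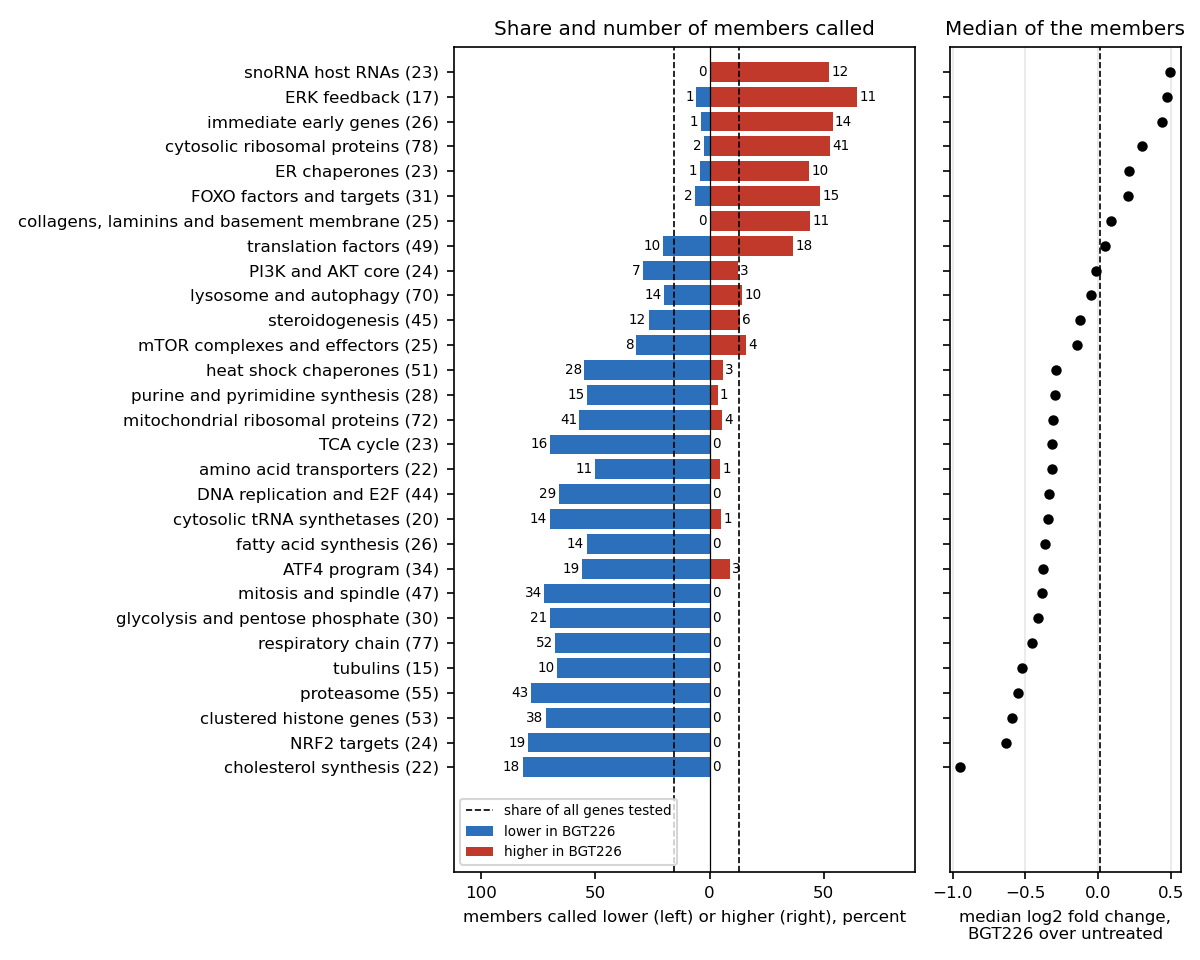
Share of each list's tested genes called lower (left) or higher (right) with BGT226, with the numbers of genes at the bar ends, beside the median log2 fold change of each list. Dashed lines mark the 15.7% lower and 12.8% higher among all genes tested and their median of 0.01; cholesterol synthesis has the lowest median, -0.95, and snoRNA hosts the highest, 0.50.

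Most genes of the inhibited pathway did not pass, and those that did changed in both directions, mostly by less than 2-fold. Of 24 genes of the PI3K and AKT core 3 were higher (12.5%), 7 lower (29.2%) and 14 did not pass, beside 12.8% higher and 15.7% lower among all genes, and without BGT226 replicate 3 these were 1 and 4. The count of higher ones was also 1 without BGT226 replicate 2 and 1 without untreated replicate 3. The regulatory subunit gene PIK3R3 had 23.0, 23.5 and 23.1 CPM in BGT226 libraries and 36.9, 36.4 and 36.5 CPM in untreated libraries (-0.66, SE 0.090, adjusted p = 1.91e-05). The lipid phosphatase gene INPP4B fell by 0.48, and the target PIK3CA, at 0.25, did not pass. The AKT phosphatases moved apart, PHLPP1 by 0.38 and PHLPP2 by -0.40. MTOR fell by 0.27, with 125, 116 and 123 CPM in BGT226 libraries and 141, 154 and 143 CPM in untreated libraries. The clearest change among mTOR effectors was in EIF4EBP1, the translation repressor that mTOR inactivates, with 14.88, 16.98 and 15.03 CPM in BGT226 libraries, against 32.6, 33.0 and 30.6 CPM in untreated libraries (-1.04, SE 0.11, adjusted p = 5.74e-07). DDIT4, a stress-induced inhibitor of mTOR complex 1, fell by 1.24, with 3.65, 4.70 and 3.48 CPM in BGT226 libraries and 8.25, 10.6 and 8.80 CPM in untreated libraries. Of 25 genes of the mTOR complexes and effectors 4 were higher, 8 lower (32.0%) and 13 did not pass. The higher ones were 1 without untreated replicate 1 or BGT226 replicate 1 and 2 without untreated replicate 3 or BGT226 replicate 2. The lower ones were 5 without untreated replicate 2 and 4 without untreated replicate 1 or any BGT226 replicate. Among 32 genes of nutrient sensing by mTOR complex 1, 6 were higher (18.8%) and 7 lower (21.9%), with a median of -0.07. The largest rise there was in WDR24, of the GATOR2 complex in amino acid sensing, at 0.73.

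FOXO factors and their targets were more often higher than lower. FOXO1 had 41.8, 41.7 and 41.8 CPM in BGT226 libraries and 18.5, 17.6 and 21.3 CPM in untreated libraries (1.13, SE 0.077, adjusted p = 3.08e-09). FOXO3 had 28.58, 29.02 and 34.04 CPM in BGT226 libraries and 13.2, 14.1 and 12.8 CPM in untreated libraries (1.20, SE 0.093, adjusted p = 1.47e-08). FOXO4 (0.09) and FOXO6 (-0.26) did not pass. Among 27 targets of FOXO proteins 13 were higher and 2 lower. KLHL24 rose by 0.96, CCNG2, a cyclin of quiescent cells, by 1.04 and YPEL3, a growth suppressor, by 0.89, while SESN3 fell by 0.53 and the mitophagy kinase PINK1 by 0.47. INSR, the insulin receptor and a FOXO target, had 124, 123 and 127 CPM in BGT226 libraries, against 87.9, 86.4 and 79.5 CPM in untreated libraries (0.56, SE 0.064, adjusted p = 2.28e-06). Of 21 receptor kinases and adaptors 6 were higher (28.6%) and 3 lower (14.3%), beside 12.8% and 15.7% of all genes. Among the 12 receptors outside the insulin and IGF group 3 were higher and 2 lower, with a median of -0.06. IRS1, the adaptor of INSR, rose by 0.34, EGFR by 0.69, ERBB2 by 0.73 and MET by 0.68, while FGFR4 fell by 0.71. IGF1R did not pass at 0.10. The growth factor IGF2, a hallmark of adrenocortical carcinoma, had 7398, 7339 and 7484 CPM in BGT226 libraries and 5405, 4610 and 4853 CPM in untreated libraries (0.58, SE 0.091, adjusted p = 7.69e-05). DLK1, another imprinted gene, rose by 0.68, while IGFBP5, which binds IGF proteins, fell by 1.39 and GRB10, an imprinted adaptor, by 0.56. In the list of 17 imprinted and IGF-related growth genes that holds these 4, 2 were higher and 2 lower (11.8% each), shares below those of all genes.

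Outputs of the ERK pathway were mostly higher. Of 17 ERK feedback genes 11 were higher and 1 lower, with a median of 0.48, and of 26 immediate early genes 14 were higher and 1 lower, with a median of 0.44. SPRY4, a feedback inhibitor of ERK signalling, rose by 1.66, the early gene EGR1 by 1.36 and the ETS factor ETV4 by 1.01. ETV4 had 44.7, 42.9 and 44.1 CPM in BGT226 libraries and 19.8, 24.9 and 20.6 CPM in untreated libraries. MYC rose by 0.53 and its antagonist MXI1 by 1.39. Among 12 pro-apoptotic members of the BCL2 family 3 were higher, HRK by 1.06, BMF by 0.99 and BCL2L11, a FOXO target, by 0.54 (against 12.8% of all genes), and 1 was lower, BAK1 at -0.40, a call lost when leaving out untreated replicate 2 or BGT226 replicate 3. Over the 16 genes of the whole family 3 were higher (18.8%) and 2 lower (12.5%), near the shares of all genes, with a median of 0.03. MCL1 did not pass at 0.08. BAG1, a cochaperone, had 38.6, 37.9 and 34.6 CPM in BGT226 libraries and 16.8, 14.9 and 14.4 CPM in untreated libraries (1.26, SE 0.10, adjusted p = 2.33e-08), although 28 of 51 cytosolic and mitochondrial chaperone genes were lower. ER chaperones went the other way, with 10 of 23 higher and 1 lower, DNAJB9 by 0.75 and P4HB by 0.42.

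Of 15 genes of the lysosomal proton pump 6 were lower and 0 higher, such as ATP6V1A at -0.39, while 6 of 26 hydrolases and membrane proteins were higher and 4 lower. CTSF, a cathepsin, had 49.3, 50.9 and 52.3 CPM in BGT226 libraries and 30.9, 32.0 and 31.6 CPM in untreated libraries (0.69, SE 0.075, adjusted p = 1.10e-06). TPP1, a peptidase, rose by 0.56 and GRN, progranulin, by 0.45. Of 26 autophagy genes 4 were higher (15.4%), 2 lower and 20 did not pass, with a median of -0.03. GABARAPL1, which coats the autophagosome, rose by 0.64, the receptor NBR1 by 0.63 and ATG14, of the initiating lipid kinase complex, by 0.57, while the receptor SQSTM1, at -0.34, was called lower, a call lost without untreated replicate 2 or BGT226 replicate 3. The lysosomal factors TFE3 and MITF fell by 0.36 and 0.43, and TFEB, at -0.08, did not pass. Over the whole list of 70, 10 genes were higher and 14 lower, near the shares of all genes, and the count of lower ones was 9, 7 and 8 without BGT226 replicate 1, BGT226 replicate 3 and untreated replicate 2. Of 25 matrix genes 11 were higher and 0 lower, with COL6A2 at 0.45, LAMB2 at 0.38 and COL27A1 at 0.67. That count was 6 or 7 without BGT226 replicate 1, 2 or 3, or without untreated replicate 2 or 3.

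Long non-coding genes and pseudogenes were more often higher than lower. Among 1903 genes annotated as long non-coding 294 were higher (15.4%) and 23 lower (1.21%), with a median of 0.29. Among 600 pseudogenes 109 were higher and 15 lower, with a median of 0.29. Among 274 genes of other kinds, such as small nuclear and nucleolar RNAs, 12 were higher (4.38%) and 3 lower (1.09%), with a median of 0.20. Protein-coding genes had 1612 of 12997 higher (12.4%) and 2442 lower (18.8%), with a median of -0.03. The difference was also present at matched levels: between 5 and 20 CPM, 31.7% of 246 long non-coding genes and 14.6% of 4227 protein-coding genes were higher, and 4.07% and 15.8% were lower. Among protein-coding genes the share called lower grew with the level, from 6.51% at 1 to 5 CPM through 26.7% at 20 to 100 CPM to 36.1% at 100 CPM and over, with medians of 0.06, -0.08 and -0.14. It also differed with the span of the gene. At 5 CPM or more, 27.6% of the fifth with the shortest genes (up to 11.2 kb) and 16.2% of the fifth with the longest (101 kb and over) were lower, with medians of -0.09 and 0.01. Reads of non-coding genes can overlap other genes on either strand, and the counting strand is not given in the sources used here. Unspliced RNA was not counted separately.

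Set against PIK75, BGT226 gave 2442 higher genes (15.5%) and 2603 lower genes (16.5%), 32.0% in all, and at least 2-fold differences in 365 higher (2.31%) and 283 lower genes (1.79%). The 3 BGT226 libraries are the same as above, so each comparison is given by its own values. ASS1, which makes argininosuccinate, had 14.2, 14.8 and 14.1 CPM in BGT226 libraries and a mean of 3.06 CPM in PIK75 libraries, a log2 fold change of 2.23 (adjusted p = 1.05e-08), beside 1.07 against untreated. ETV4 averaged 43.9 CPM with BGT226 and 11.1 CPM with PIK75 (1.99), and the zinc-finger gene PRDM16 averaged 20.4 and 5.36 CPM (1.92). SNCAIP, which encodes a synuclein partner, averaged 2.35 CPM with BGT226 and 13.1 CPM with PIK75 (-2.48, adjusted p = 5.81e-10), while against untreated its -0.25 did not pass. KIRREL3, an adhesion gene, showed the same pattern, at -2.15 against PIK75 and -0.04 against untreated. EEF2 (0.99), EIF4B (1.05), RPL12 (0.66) and ZFAS1 (1.88) were higher than in PIK75 libraries, while over all genes with a TOP-like start the median was 0.04, and over those with another start it was -0.02. Steroid enzymes were more often higher than lower against PIK75: of 17, 7 were higher and 0 lower. CYP21A2 averaged 913 ± 30.1 CPM with BGT226 and 327 ± 40.6 CPM with PIK75 (1.48), and CYP17A1 averaged 104 ± 1.87 and 83.8 ± 2.92 CPM (0.31; SD, n = 3 each). FOXO3 changed by 0.92 against PIK75, INSR by 0.81, EIF4EBP1 by -1.14 and FDPS by -0.96.

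The addition of BGT226 was also measured as STA9090+BGT226 against STA9090, in libraries that share no sample with BGT226 against untreated. That step had 3078 higher genes (19.5%) and 3300 lower genes (20.9%), 40.4% in all, and at least 2-fold changes in 659 higher (4.17%) and 315 lower genes (2.0%). Of the 2028 genes higher against untreated, 1542 (76.0%) were called higher in that step and 0 lower. Of the 2485 lower, 2100 (84.5%) were called lower and 2 higher. Over the 10389 genes with at least 5 CPM in the BGT226 and untreated libraries the log2 fold changes of the steps had a Pearson r of 0.81 and a Spearman rho of 0.85, across genes that are not independent and that share the cell line and the assay. C6orf48 changed by 2.48 in this step and by 2.31 without STA9090, FDPS by -1.84 and -1.54, EEF2 by 1.15 and 1.07, and ASNS by -1.73 and -1.53. CYP17A1 changed by -0.75 with STA9090 and by -1.34 without it, and HSD3B2 by 1.03 and 0.34. Clustered histone genes had a median of -1.22 with STA9090 and -0.59 without, and cytosolic ribosomal protein genes had medians of 0.08 and 0.30, with 17 higher and 12 lower with STA9090.

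The test of the difference between the steps called 1 gene of 15787 (0.00633%), and 1490 genes (9.44%) had an unadjusted p under 0.05. That gene was CLSTN3, a synaptic cadherin, whose log2 fold change was 1.20 with STA9090 and 0.44 without it. No gene was called without untreated replicate 3, BGT226 replicate 1 or BGT226 replicate 3. The steps of CYP17A1 and HSD3B2 did not differ past that threshold (adjusted p = 0.154 for each), nor did that of any ribosomal protein or histone gene listed. These results depended on the method. DESeq2 called 35 genes, with adjusted p = 0.000489 for CYP17A1 and 0.00564 for HSD3B2, 3 histone genes and 0 ribosomal protein genes. Without the filter on low counts edgeR's quasi-likelihood test called 269 genes, with adjusted p = 0.00139 for CYP17A1 and 2.48e-05 for HSD3B2, 38 histone genes and 3 ribosomal protein genes. Without STA9090 replicate 3 the difference in CYP17A1 passed, at 0.0266 by edgeR's quasi-likelihood test.

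**Figure D5:**
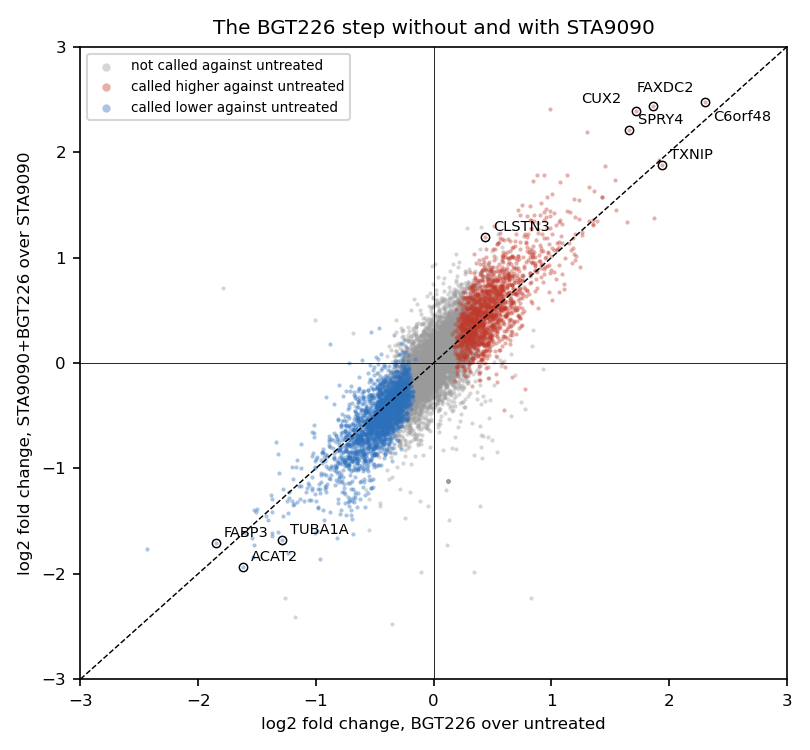
Log2 fold change of STA9090+BGT226 over STA9090 (vertical axis) against that of BGT226 over untreated (horizontal axis) for 10389 genes, coloured by the call against untreated, with the dashed line marking equal changes; 5 genes lie beyond the axes. Called genes lie along the line, and CLSTN3, at 0.44 and 1.20, is the gene whose steps differed by the test.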

How the data were processed

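RNA from NCI-H295R cells was sequenced after depletion of ribosomal RNA, and the table deposited by the authors holds expected counts per gene for 18 libraries in 6 groups of 3. Per the submitters' processing notes, the tools include bcl2fastq 2.20, cutadapt 1.18, STAR 2.7.0f and RSEM 1.3.1 with genome hg38; no source used here gives their settings, the annotation release or the counting strand. The estimated counts were rounded, which changed a library's total by at most 0.000381%, and 0 columns of the table went unused. Of 58870 genes, 15787 passed edgeR's filterByExpr (minimum count 10, minimum total 15). All groups entered a single fit with TMM factors of 0.9034 to 1.132, and each contrast was tested with edgeR 4.0.16's quasi-likelihood test in R 4.3.3, with Benjamini-Hochberg adjustment over all genes tested and a threshold of 0.05. Standard errors were obtained as the size of the log2 fold change over the root of its F statistic, and CPM values use the TMM library sizes. The common dispersion of 0.01119 corresponds to a coefficient of variation of 10.58% between libraries. The procedure was tested on simulated counts with known changes.

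Lists and members were chosen with earlier results of these data known. The genes named are, by rule, the 15 largest rises and falls among protein-coding genes called, averaging 5 CPM or more with BGT226 and untreated values fully apart, the 5 largest each way among other gene types, up to 5 called members of each list or role by adjusted p and up to 3 by mean level, any member of 7 lists (PI3K and AKT core, mTOR complexes, nutrient sensing, FOXO, ATF4 program, cholesterol synthesis, steroidogenesis), the 6 largest each way against PIK75, and the 4 largest each way in the difference between steps. Some members of the lists are counted but not reported here by name. Gene kinds come from GENCODE 29. Starts and upstream sequences come from RefSeq promoter windows on GRCh38.p14. These were matched by Ensembl identifier, or by symbol where that gave no match, for 10655 genes (67.5%). A gene with several windows counted as holding an element if any window held it. Shares of upstream elements in a list were taken over its called members in the direction given, and not over the others. Alternatives were DESeq2 1.42.0, size factors by the RLE method, other filters, the compared groups alone, a replicate block, removal of the 50 genes with most counts, and removal of each library in turn.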

Additional observations from a re-analysis of the deposited data

Results flagged for a closer look

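CLSTN3, which encodes a synaptic cadherin, was singled out because the effect of BGT226 on it differed with and without STA9090 by the test of that difference. Its log2 fold change was 1.20 for STA9090+BGT226 over STA9090 and 0.44 for BGT226 over untreated, a difference of 0.76 (adjusted p = 0.00699 by edgeR's quasi-likelihood test).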

How the results depend on the processing

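Against untreated cells, BGT226 gave 1414 to 2252 higher and 1850 to 2598 lower genes over all alternatives, within 1.5 times of the 2028 and 2485 reported. Of 452 genes named and called, 10 lost their call with DESeq2, 30 without the filter on low counts and 32 to 61 with a library left out, and 0 changed direction. The test of the difference between the BGT226 steps depended on the setting: DESeq2 called 17 genes higher and 18 lower, the fit without the filter called 82 and 187, and leaving out a library gave 0 to 3 higher and 0 to 3 lower; the cause was not tested. Counts of list members moved by more than 1.5 times in 122 of 1378 comparisons of lists and settings. Replicate numbers did not pair the libraries, since the deviations of same-numbered BGT226 and untreated libraries correlated at 0.0487, 0.0329 and 0.0304. With the replicate block 1971 genes were higher and 2437 lower. At 3 libraries a group and 10237016 to 21133760 counts a library, 40 of 829 protein-coding genes under 1 CPM were called higher and 31 lower.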
